A study of Mus musculus with 14 samples.

Results

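The levels of 10 transcription factors that build the heart, namely Nkx2-5, Gata4, Gata6, Tbx2, Tbx3, Tbx20, Hand1, Hand2, Isl1 and Mef2c, were examined in mouse fetuses of gestational day 12.5. They were picked by gene symbol from the 18132 named genes of the deposited table, with earlier results of these data known. All 10 were present and passed the filter for testing. RNA had been measured in 14 fetuses. At the zygote stage each had received, by random assignment, an injection of either a let-7f-5p mimic (a synthetic copy of that microRNA), in an amount described as stress-relevant, or only nuclease-free water, the vehicle. All fetuses were of the strain F1 C57BL/6Jx129S1/SvlmJ and of genotype WT, and all were injected, cultured in KSOM medium and carried to E12.5 by CD1 recipient dams. By sex and injection they comprised 2 let-7f males, 3 let-7f females, 4 vehicle males and 5 vehicle females. Which fetuses shared a dam is not stated, so p-values measure only the spread between these fetuses.

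As background, these factors work as a network in which most members bind DNA near the genes of others. Nkx2-5 (homeodomain) and Gata4 and Gata6 (zinc finger) start the muscle programme of the heart, and Tbx20 (T-box) keeps it going in the chambers. Tbx2 and Tbx3, also T-box proteins, repress chamber genes in the atrioventricular canal and the conduction tissue. Hand1 and Hand2 (basic helix-loop-helix) act mainly in the left and the right ventricle, Isl1 (LIM homeodomain) marks the progenitors of the outflow tract and right side, and Mef2c (MADS box) drives contractile genes. None is confined to the heart: Isl1 and Tbx20 are used in motor neurons, Isl1 also in sensory neurons, Tbx2, Tbx3 and Hand2 in the limb buds and face, Gata4 in the gonad, Gata6 in endoderm, Hand2 in sympathetic neurons, and Mef2c in skeletal muscle, brain and vessels. In RNA of a fetus, fewer cells of a type and less RNA per cell cannot be told apart.

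The mimic carries the sequence of mouse let-7f-5p, which RefSeq places, on GRCm38, at chr13:48537889-48537910 on the minus strand (Mirlet7f-1) and at chrX:151912353-151912374 on the plus strand (Mirlet7f-2). A microRNA pairs with its targets chiefly through its seed, bases 2 to 8, shown in capitals in the mimic. In the target sites listed after it, read from GENCODE M21 on GRCm38, the capitals mark the bases opposite the seed and the A that follows.
let-7f-5p mimic: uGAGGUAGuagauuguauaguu
Hand1: cccaccctctttCTACCTCAaatcagtgtg
Hand2: tttacatgggtgaTACCTCAaaagaatttt
Mef2c, upstream site: ccttccctgtccaTACCTCAaattgattga
Mef2c, downstream site: tcaaattgattgaTACCTCAgtttaattca
Sites were sought in the 3′ UTR of the longest coding transcript, as a match to bases 2 to 8 (CTACCTC) or to bases 2 to 7 followed by A (TACCTCA). Of the 10 factors, 3 held a site, against 2558 of 15427 tested genes with a 3′ UTR, or 16.6%. The Hand1 site, at chr11:57828791-57828798 on the minus strand, matches all 7 seed bases and has the A. The Hand2 site lies at chr8:57324550-57324556 on the plus strand, and the Mef2c sites, on the plus strand too, lie close together at chr13:83666610-83666616 and chr13:83666627-83666633. A match describes the sequence and says nothing on its own about pairing in the fetus.

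The reads recovered from the deposited values came to between 27709934 and 42898166 per library, and the 10 factors took between 0.017% and 0.0299% of them. Depth was thinnest for Nkx2-5, with 23 to 58 reads per library. Let-7f male 1 stood apart from the other 13 libraries: transcripts of cytosolic ribosomal proteins took 16% of its reads, against 3.99% to 9.63% elsewhere, and its heart muscle score was 1.16 where the next highest, in vehicle male 2, was 0.523. A score averages, over the genes of a list, how far each gene's log2 value lies from its own 14-fetus mean. Vehicle female 2 had a liver score of -5.70, with the other 13 between -0.806 and 1.43, and vehicle male 1 a trophoblast score of 2.25, over the 5 of 14 listed genes that were tested, with the other 13 between -1.02 and 0.343. Male results are given with and without let-7f male 1.

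To compare levels between genes, values were divided by the length of the longest coding transcript in kilobases (kb) and averaged over the 9 vehicle fetuses. Isl1 was the most abundant factor per kb, at 491 ± 63.4 (SD, n = 9, as for the other levels per kb here), followed by Tbx2 at 446 ± 66.6, Hand2 at 337 ± 50.8, Tbx3 at 335 ± 65.1 and Mef2c at 306 ± 113. The next level per kb was 91.8 ± 18.4, for Gata4, and Gata6 had 90.6 ± 12.5. Hand1 stood at 67.7 ± 28.4 and Tbx20 at 40.7 ± 15.6. Nkx2-5, which in textbook accounts is the factor most specific to heart muscle, was the lowest at 25.2 ± 8.42. Along this order the vehicle ranges of every pair of neighbours overlapped except at 1 step: the lowest Mef2c value per kb was 163 and the highest Gata4 and Gata6 values were 116 each.

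**Figure D1:**
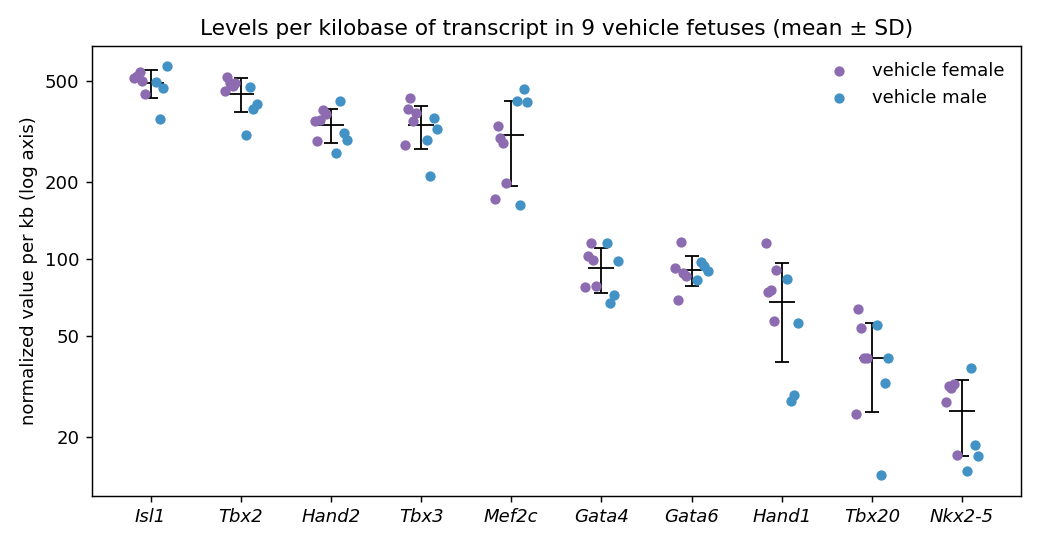
Normalized value per kb of transcript (log axis) of each factor in the 5 vehicle females and 4 vehicle males; points are fetuses, and bars give the mean ± SD over the 9. The 5 most abundant factors lie at or above 163 and the other 5 at or below 116.

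The factors also differed in how much fetuses of the same group varied. The SD of the log2 values among vehicle fetuses, taken within each sex, was 0.674 for Tbx20, 0.571 for Hand1, 0.559 for Mef2c and 0.476 for Nkx2-5. The median over all tested genes was 0.31, and 90.6% of tested genes varied less than Tbx20. Tbx2, at 0.177, was the steadiest factor, with 20.7% of genes varying less, and Isl1 (0.207), Gata6 (0.211) and Hand2 (0.223) lay close to it. A change of a given size is thus easier to detect for Tbx2 than for Tbx20 in these groups.

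Let-7f was compared with vehicle first in females. None of the 10 factors passed the threshold of 0.05 on the adjusted p of limma, where 0.00575% of the 17400 tested genes did. None had an unadjusted limma p under 0.05, where 0.81% of genes did. By edgeR 0 and by DESeq2 0 factors passed, where edgeR called 0 and DESeq2 2 of all genes. DESeq2 gave 1 factor an unadjusted p under 0.05, and edgeR 0. The share of all genes under these tools is not given here, so these counts cannot be weighed. For each factor the let-7f and vehicle values overlapped, as they did for all but 1.49% of genes. Of the 10 log2 differences (let-7f minus vehicle, on the log2(value + 1) scale) 6 were above 0 and 4 below, with a median of 0.0632, beside -0.00387 for all tested genes.

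Mef2c gave the widest separation in females. Its normalized values were 3110.2, 4105.8 and 1175.5 in the 3 let-7f females. In the 5 vehicle females they were 1080.9, 2096.4, 1881.5, 1793.4 and 1248.6. A pair of let-7f females thus lay above every vehicle female, and the third lay among the lowest. The log2 difference was 0.65 (SE 0.418, 95% interval -0.252 to 1.55, limma adjusted p = 1). Without let-7f female 3 it was 1.19 (adjusted p = 0.963), without let-7f female 2 it was 0.28, and with library weights 0.93 (adjusted p = 0.0667).

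Hand1, the factor with the fullest let-7 site, had values of 147.7, 184.3 and 218.9 in let-7f females and of 219.2, 141.8, 143.7, 109 and 172.5 in vehicle females. The highest values were alike, 3 of the 5 vehicle females lay below the lowest let-7f female, and the log2 difference was 0.24 (SE 0.346, 95% interval -0.505 to 0.99). Hand2, with a shorter site, had 782.1, 608.5 and 966.8 in let-7f females and 818.7, 681, 827.7, 902.8 and 873 in vehicle females. Its log2 difference was -0.08 (SE 0.204, 95% interval -0.523 to 0.36). The 3 factors with a site therefore had differences on both sides of 0, and none passed the test.

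The GATA factors were close between the female groups. Gata4 had values of 359.7, 409.8 and 341.6 in let-7f females and of 264.3, 348.4, 391.9, 337.3 and 265.4 in vehicle females (log2 difference 0.22, SE 0.241). Gata6 had 324, 310 and 296.4 against 297.6, 224.1, 376.3, 286 and 277.9 (0.10, SE 0.269). For both genes every let-7f value lay within or close to the vehicle range.

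The T-box factors were as close. Tbx2 stood at 1617.5, 1301.4 and 1946.3 in let-7f females and at 1651.4, 1883.7, 1785.4, 1728.2 and 1782.4 in vehicle females (log2 difference -0.14, SE 0.187). Tbx3 stood at 1748.5, 1464.6 and 1955.7 against 1400.0, 1932.8, 2139.7, 1742.2 and 1861.9 (-0.07, SE 0.187). Tbx2 values were more scattered in the 3 let-7f females than in the 5 vehicle females, which was not tested.
Tbx20 had 432.8, 493.3 and 336.5 in let-7f females and 224.6, 578.6, 488, 371.7 and 371.8 in vehicle females (0.10, SE 0.436). Nkx2-5 had 42.08, 29.75 and 49.4 against 41.9, 48.14, 47.61, 49.38 and 25.87 (-0.07, SE 0.37). Isl1 had 1285.5, 1057.7 and 1584.3 against 1297.9, 1321.8, 1360.6, 1255.9 and 1118.3 (0.03, SE 0.231). The vehicle ranges of Tbx20 and Nkx2-5 held all let-7f values but the highest of Nkx2-5, and Isl1 values lay on both sides of the vehicle females.

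**Figure D2:**
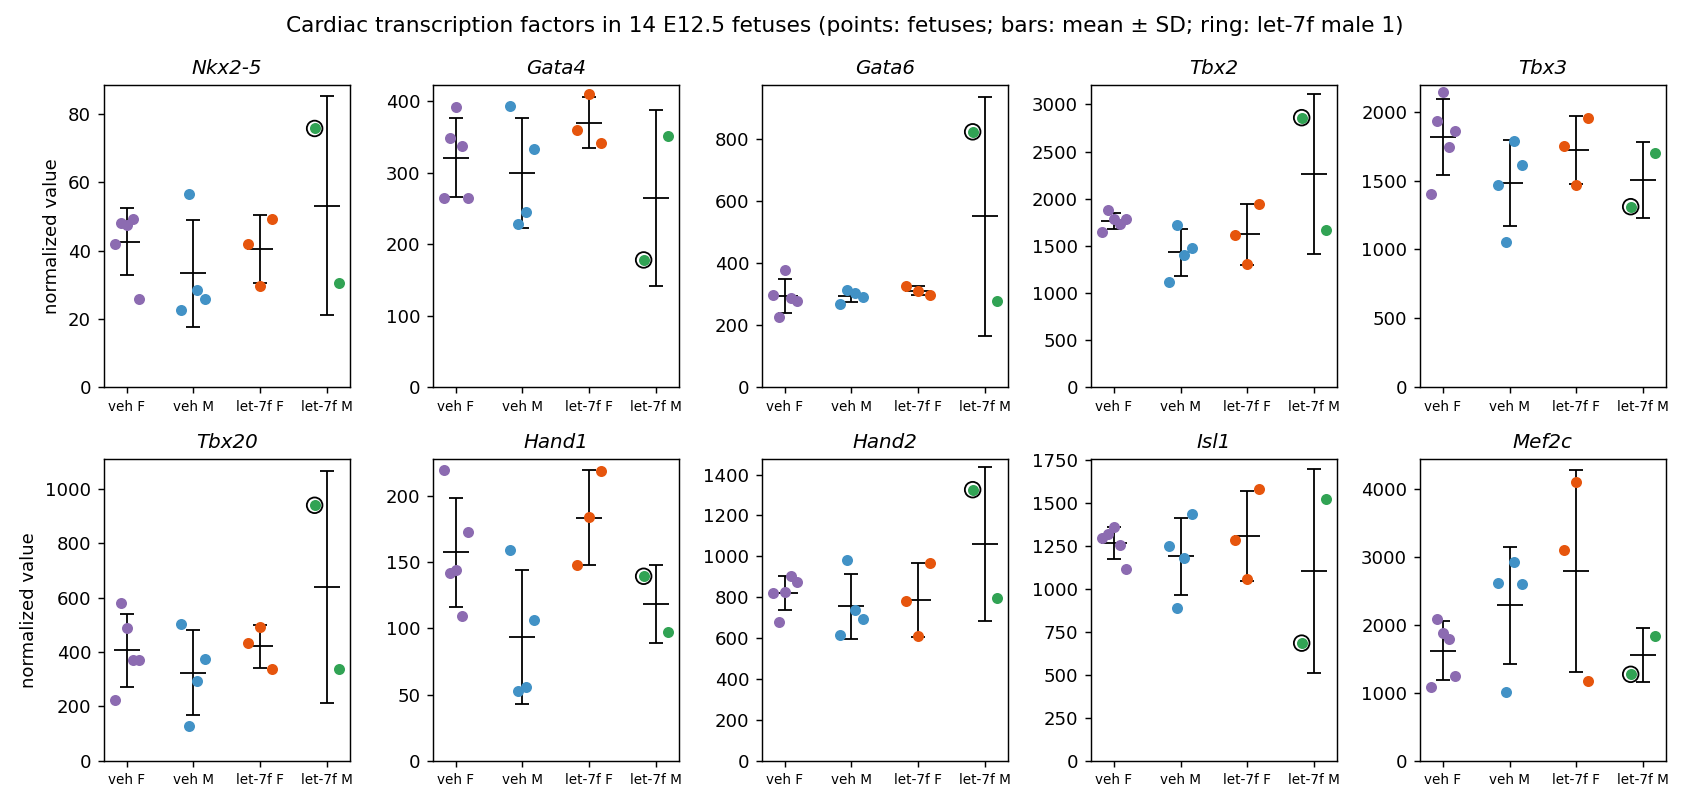
Normalized value of each factor (vertical axis, from 0) in every fetus, by group (veh, vehicle; F, female; M, male); points are fetuses, bars give the mean ± SD, and a ring marks let-7f male 1. Let-7f male 1 is the highest fetus for Nkx2-5, Gata6, Tbx2, Tbx20 and Hand2 and the lowest for Gata4 and Isl1, while let-7f male 2 lies within the range of the vehicle fetuses except for Isl1.

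In males the same comparison rested on 2 let-7f fetuses, and let-7f male 1 set most of its values. None of the 10 factors passed limma's threshold, nor did any other gene (0% of 17400). By edgeR 0 and by DESeq2 0 factors passed, where edgeR called 0 and DESeq2 58 of all genes. An unadjusted p under 0.05 was reached by 2 factors, Tbx2 and Gata6, where 10.8% of all tested genes reached it. No factor had groups that did not overlap, where 10% of genes did. The median log2 difference of the 10 factors was 0.46, beside -0.00194 for all genes, with 7 above 0 and 3 below.

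Gata6, which in the mouse acts in heart muscle, smooth muscle and gut endoderm, had a value of 821.6 in let-7f male 1 and of 278.4 in let-7f male 2. The 4 vehicle males had 268.1, 313.8, 303 and 290.3, and the highest of the other 13 fetuses had 376.3. Let-7f male 1 thus stood alone, and let-7f male 2 was among the vehicle males. The log2 difference was 0.70 (SE 0.319, 95% interval 0.0144 to 1.39, limma adjusted p = 0.447). Without let-7f male 1 it was -0.07.

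Tbx2, the repressor of chamber genes, had 2859.6 and 1662.5 in the let-7f males and 1115.4, 1719.9, 1405.0 and 1478.0 in the vehicle males. Again only let-7f male 1 exceeded the vehicle males. The log2 difference was 0.63 (SE 0.222, 95% interval 0.147 to 1.1, limma adjusted p = 0.447). Without let-7f male 1 it was 0.23 (adjusted p = 1).
Tbx20, which maintains chamber muscle, had 939.7 and 338.4 in the let-7f males and 501.9, 128.6, 295 and 372.8 in the vehicle males. Its log2 difference of 0.96 (SE 0.517, adjusted p = 0.447) was 0.22 without let-7f male 1. Tbx3 had 1309.9 and 1697.9 against 1467.6, 1054.8, 1788.5 and 1614.7, a log2 difference of 0.04 (SE 0.222) and of 0.22 without let-7f male 1. The T-box family thus did not share a pattern in let-7f male 1, which was the highest fetus for Tbx2 and Tbx20 and among the lower ones for Tbx3.

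Hand2, needed for the right ventricle in the mouse, had 1325.8 and 795.8 in the let-7f males and 613.4, 981.9, 736.1 and 692.4 in the vehicle males (log2 difference 0.46, SE 0.242, adjusted p = 0.447). That difference was 0.10 without let-7f male 1. Nkx2-5 had 75.81 and 30.5 in the let-7f males and 22.5, 56.69, 28.35 and 25.74 in the vehicle males (0.61, SE 0.438), and -0.03 without let-7f male 1. The Nkx2-5 value of let-7f male 1 came from 43 reads.
Hand1 had 139.3 and 97.39 in the let-7f males, both inside the vehicle range of 52.64 to 159.5 (0.46, SE 0.41, and 0.21 without let-7f male 1).

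Gata4, Isl1 and Mef2c pointed the other way. Gata4 was at 178.1 in let-7f male 1 and 352.2 in let-7f male 2, with vehicle males at 393.3, 228.8, 245.4 and 333.8 (log2 difference -0.23, SE 0.285). Isl1, the progenitor and motor neuron factor, was at 685.8 and 1526.7, with vehicle males at 1253.3, 891.8, 1180.0 and 1437.2 (-0.20, SE 0.274). For both genes let-7f male 1 was below and let-7f male 2 within or above the vehicle range, and without let-7f male 1 the differences turned to 0.26 and 0.38.
Mef2c was at 1274.6 and 1837.6, both within the range of the vehicle males, which had 2626.0, 1021.4, 2924.2 and 2608.1 (-0.47, SE 0.496). The Mef2c difference was -0.21 without let-7f male 1.

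When let-7f male 2 was left out instead, the comparison came down to let-7f male 1 alone, whose spread is then taken to be like that of the other groups. Limma then called 4389 genes, and 4 factors were among them: Gata6 at 1.48 (adjusted p = 0.00242), Tbx2 at 1.02 (adjusted p = 0.0122), Hand2 at 0.83 (adjusted p = 0.0429) and Isl1 at -0.77 (adjusted p = 0.0408). Let-7f male 1 was also the fetus with the highest ribosomal protein and heart muscle scores of the 14. In the male comparison a score used as a covariate therefore cannot be cleanly separated from that fetus. With the heart muscle score and then the ribosomal protein score as a covariate, the male difference was 0.42 and 0.32 for Gata6, 0.36 and 0.33 for Tbx2, 0.17 and 0.10 for Hand2, and 0.079 and 0.052 for Nkx2-5. For Tbx20 it was 1.05 and 1.16, and none of these passed the threshold.

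**Figure D3:**
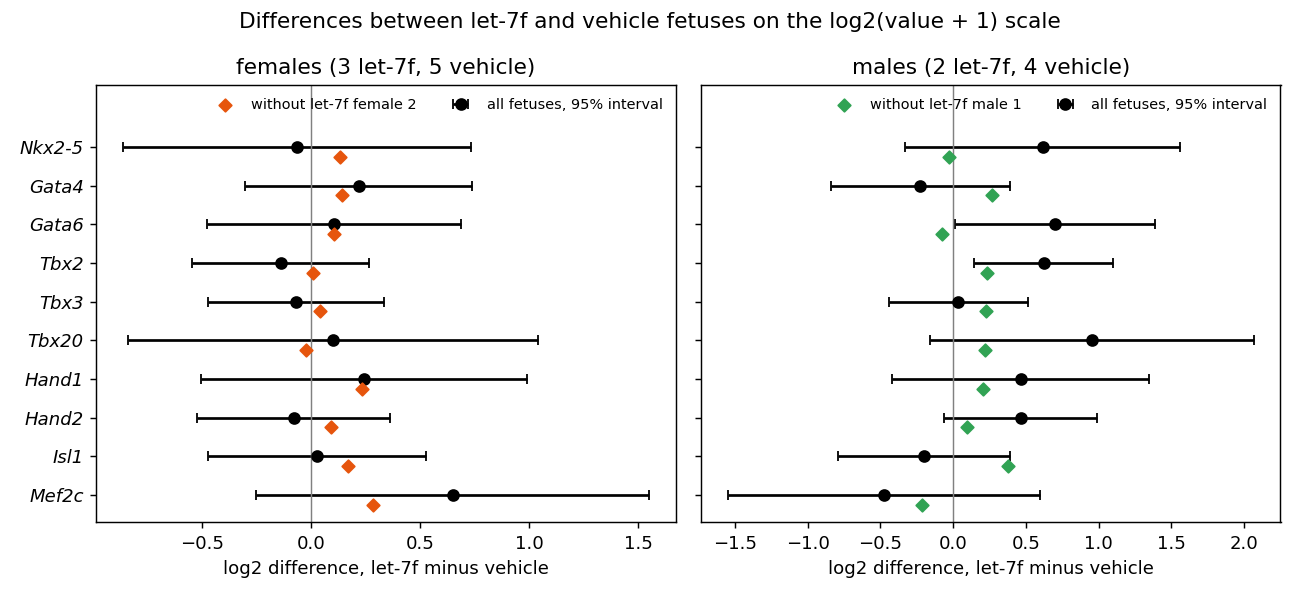
Log2 difference between let-7f and vehicle fetuses (horizontal axis, log2(value + 1) scale) for each factor in females and in males, with 95% intervals from limma (black), and the difference without let-7f female 2 (orange) or without let-7f male 1 (green). In males the interval excludes 0 for Gata6 and Tbx2, and without let-7f male 1 those differences are -0.07 and 0.23.

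Over both sexes, the mean of the female and male differences was above 0 for 7 factors and below 0 for 3, with a median of 0.217 beside 0.00604 for all genes. No factor passed limma's threshold, as no tested gene did (0%), and none had an unadjusted limma p under 0.05, where 2.78% of genes did. By edgeR 0 and by DESeq2 0 factors passed, where edgeR called 0 and DESeq2 8 of all genes. Each of these 2 tools gave 1 factor an unadjusted p under 0.05, a count that cannot be weighed without their share of all genes, not given here. Gata6 had the smallest p of the 10 (log2 difference 0.40, SE 0.209, limma adjusted p = 0.947), and its value moved with the let-7f males. It was 0.014 without let-7f male 1, 0.79 without let-7f male 2, where let-7f male 1 was the only let-7f male, and -0.05 without the 5 libraries that stood apart.

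Whether the male and female responses differed (male minus female) was tested as an interaction. None of the 10 factors passed limma's threshold (0% of genes did), and 1, Tbx2, had an unadjusted limma p under 0.05, where 8.53% of genes did. By edgeR 0 and by DESeq2 0 factors passed, where edgeR called 0 and DESeq2 24 of all genes. Each of these tools gave 2 factors an unadjusted p under 0.05, again without a share of all genes to weigh the count against. Tbx2 differed by 0.77 (SE 0.29, 95% interval 0.14 to 1.39, limma adjusted p = 0.522). Without let-7f male 1 the Tbx2 difference was 0.38, and without let-7f male 2, where let-7f male 1 was the only let-7f male, 1.16. For Mef2c, which was at 0.65 in females and -0.47 in males, the difference was -1.13 (SE 0.649, 95% interval -2.53 to 0.276, adjusted p = 0.522). The Mef2c value was -0.31 with the ribosomal protein score as a covariate, -0.52 with the heart muscle score and -1.73 with library weights, and none passed.

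Among vehicle fetuses, male minus female differences were below 0 for 8 factors and above 0 for 2, with a median of -0.22 beside -0.0123 for all genes. None of the 10 passed limma's threshold, which 0.0402% of genes did, and 1, Hand1, had an unadjusted p under 0.05, which 2.63% of genes had. By edgeR 0 and by DESeq2 0 factors passed, where edgeR called 5 and DESeq2 12 of all genes. The male and female values of every factor overlapped, as for all but 1.43% of genes. Hand1 stood at 159.5, 52.64, 55.81 and 106.5 in the vehicle males and between 109 and 219.2 in the vehicle females, so that 3 of the 4 males lay below every female. The log2 difference was -0.86 (SE 0.318, 95% interval -1.54 to -0.169, limma adjusted p = 1), and -0.84 without the 5 libraries that stood apart. Hand1 is also a factor of trophoblast and extraembryonic mesoderm. Vehicle male 1, the male with the highest Hand1, was the fetus with a trophoblast score of 2.25. The highest Hand1 values of all fetuses were however in vehicle female 1 (219.2) and let-7f female 3 (218.9). Their trophoblast scores were -0.152 and -0.669. The part of such tissue was not tested. Tbx2 was at -0.32 (SE 0.172) and Tbx3 at -0.31 (SE 0.172), and Mef2c at 0.44 (SE 0.384).

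Let-7f male 1 was the highest of the 14 fetuses for 5 factors and the lowest for 2, and it was also the highest for 30.4% and the lowest for 25.7% of all tested genes. Vehicle male 2, which had the second highest ribosomal protein score (0.906), was the lowest for 4: Tbx3 at 1054.8, Tbx20 at 128.6, Hand1 at 52.64 and Mef2c at 1021.4. That fetus was the lowest for 16.5% of all tested genes. For Tbx20 these 2 libraries lay at opposite ends, 939.7 and 128.6. High ribosomal protein transcripts thus did not go with a single direction over the factors.

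Each factor was set against the heart muscle score, the mean deviation of transcripts of 24 contractile and related genes. Myh6, the atrial myosin heavy chain, had a value of 46397 in let-7f male 1, 12977 in vehicle male 2 and 3346 to 8711 in the other 12 fetuses. Tnnt2, cardiac troponin T, had 17223, 11048 and 4296 to 7600 in the same order, and Nppa, the atrial natriuretic peptide, had 3662, 1829 and 504.9 to 1319. All these genes thus put the same 2 fetuses at the top.
Of the 10 correlations with the score over 14 fetuses, 6 had an adjusted p under 0.05 (two-sided permutation test, 100000 resamples, Benjamini-Hochberg over the 10). Hand2 had r = 0.817 (permutation p = 0.00079, adjusted p = 0.00395; rho = 0.692, permutation p = 0.00798, adjusted p = 0.0266). Nkx2-5 had r = 0.754 (permutation p = 0.00067, adjusted p = 0.00395; rho = 0.727, permutation p = 0.00454, adjusted p = 0.0227) and Tbx2 r = 0.763 (permutation p = 0.00318, adjusted p = 0.00795; rho = 0.604, permutation p = 0.0252, adjusted p = 0.0629). Gata4 was lower where the score was higher (r = -0.761, permutation p = 0.00312, adjusted p = 0.00795; rho = -0.569, permutation p = 0.0358, adjusted p = 0.0716), as were Isl1 (r = -0.706, permutation p = 0.0124, adjusted p = 0.0206; rho = -0.209, permutation p = 0.473, adjusted p = 0.592) and Mef2c (r = -0.636, permutation p = 0.00918, adjusted p = 0.0184; rho = -0.754, permutation p = 0.00264, adjusted p = 0.0227).
Without let-7f male 1 and vehicle male 2, 0 of the 10 passed. The r was then 0.491 for Hand2, 0.512 for Nkx2-5, 0.513 for Tbx2, -0.262 for Gata4 and 0.27 for Isl1. For Mef2c it was -0.652 (permutation test, adjusted p = 0.233), so the size of its r did not rest on these 2 fetuses. Among the 9 vehicle fetuses 0 passed an exact permutation test. Relations with the score over the 14 fetuses were also common among genes. Of tested genes outside the list, 27% had an r at least as far from 0 as Hand2, 35.6% as Tbx2 and 36% as Gata4. The share was 37% for Nkx2-5, 43.6% for Isl1 and 51.6% for Mef2c, so these relations are not particular to the factors.

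Ribosomal protein transcripts, the other quantity that set let-7f male 1 apart, gave relations of which only some held without that fetus. The same 2 fetuses led both scores. Let-7f male 1 had 1.865 for ribosomal proteins and 1.16 for heart muscle, and vehicle male 2 had 0.906 and 0.523. Relations with the 2 scores are thus not independent of each other. Over the 14 fetuses 8 of the 10 factors had an adjusted p under 0.05 for Pearson's r with the ribosomal protein score (permutation test). Of tested genes outside the ribosomal proteins, 19.3% had an r at least as far from 0 as Hand2, 45.7% as Nkx2-5 and 58.5% as Tbx3. Without let-7f male 1 there were 4 factors, of which 3 were among the 8 and the other was Tbx20. The r of Gata6 went from 0.76 to 0.115 without that fetus, and that of Isl1 from -0.732 to -0.354. Hand2 was higher where ribosomal protein transcripts were higher, with r = 0.894 (permutation p = 2e-05, adjusted p = 0.0002; rho = 0.886, permutation p = 5e-05, adjusted p = 0.0005). Without the 2 fetuses farthest from the median score its r was 0.77 (adjusted p = 0.0169), and among the 9 vehicle fetuses 0.797 (exact permutation test, adjusted p = 0.0253). Mef2c was lower, with r = -0.708 (permutation p = 0.00153, adjusted p = 0.00387; rho = -0.868, permutation p = 0.00014, adjusted p = 0.0007), then -0.885 (adjusted p = 0.0007) and -0.888 (exact permutation test, adjusted p = 0.00276) in the same subsets.
Tbx20 had r = 0.01 over all 14 (permutation p = 0.968, adjusted p = 0.968; rho = -0.358, permutation p = 0.211, adjusted p = 0.342), but -0.866 (adjusted p = 0.00245) without let-7f male 1 and -0.869 (exact permutation test, adjusted p = 0.0253) among vehicle fetuses. Without let-7f male 1 and vehicle male 2 it was -0.692 (adjusted p = 0.0414). In that factor let-7f male 1 was the highest fetus while the other 13 descended as the score went up. Such relations were frequent in the whole table: without let-7f male 1, 33.6% of tested genes outside the ribosomal proteins had an r at least as far from 0 as Hand2, 24.1% as Mef2c and 23.3% as Tbx20. They are thus not particular to these factors. With the ribosomal protein score as a covariate, Mef2c in females was at 0.52 (adjusted p = 0.998).

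**Figure D4:**
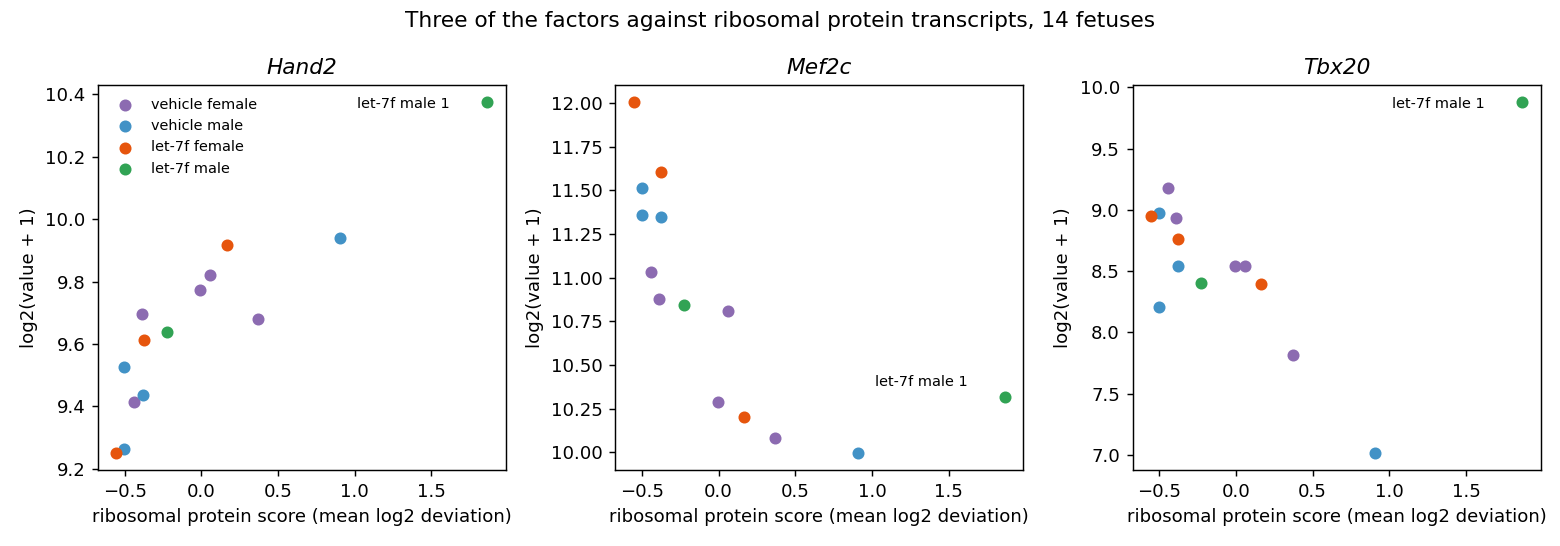
Log2(value + 1) of Hand2, Mef2c and Tbx20 (vertical axes, each with its own range) against the ribosomal protein score (horizontal axis, mean log2 deviation over the 79 ribosomal protein genes) in the 14 fetuses, coloured by group. Hand2 goes up and Mef2c down with the score (r = 0.894 and -0.708), and Tbx20 goes down in 13 fetuses (r = -0.866), with let-7f male 1 far above them.

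Among the 45 pairs of factors, 6 (13.3%) had an adjusted p under 0.05 for Pearson's r over the 14 fetuses, 4 positive and 2 negative. Over all pairs of the 17400 tested genes, 17.5% had an r at least as far from 0 as the weakest of these 6 (0.724), so the share was not higher among the factors. Tbx2 and Hand2 were the most alike pair (r = 0.874, permutation p = 0.00013, adjusted p = 0.00472; rho = 0.723, permutation p = 0.00467, adjusted p = 0.0546). Hand2 and Mef2c were the most opposed (r = -0.746, permutation p = 0.00159, adjusted p = 0.0179; rho = -0.811, permutation p = 0.00077, adjusted p = 0.0346). Without the 2 fetuses farthest from the median of the first gene of each pair 0 of the 45 passed, although r was 0.676 and -0.75 for these pairs. Without let-7f male 1, 4 pairs passed, where 14.6% of all gene pairs were at least as far from 0 as the weakest of them (0.722). They were 3 of the 6, namely Tbx2 with Hand2 (r = 0.754, adjusted p = 0.0405), Nkx2-5 with Tbx2 (r = 0.722, adjusted p = 0.0414) and Hand2 with Mef2c (r = -0.811, adjusted p = 0.0259), and in addition Gata4 with Tbx20 (r = 0.821, adjusted p = 0.0099). The negative relation of Hand2 and Mef2c runs the same way as their relations with the ribosomal protein score.

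For each factor, the 3 genes most alike over the 14 fetuses (highest Pearson r among 14016 genes of mean value 50 or more, as a description) were named. Tbx2 was most like Cxxc5 (r = 0.977), Hes5 (0.962) and Nkx6-2 (0.953), and Hand2 most like Hmgn1 (0.966), Fen1 (0.964) and Dmap1 (0.96). Mef2c was most like Mfap3l (0.961), Nfia (0.961) and Bicc1 (0.955), and Tbx3 most like Hmga2 (0.942), Trim62 (0.92) and Map2k6 (0.917). These values barely moved without let-7f male 1, being 0.954 for Cxxc5, 0.939 for Hmgn1, 0.965 for Mfap3l and 0.945 for Hmga2. No gene of the heart muscle list was among the genes named. With 24 genes on that list and 3 per factor taken from 14016, this absence says little.
Nkx2-5 was most like Fbxo31 (0.925), Faap100 (0.918) and Sgta (0.916), Gata4 like Ripor1 (0.934), Slc35a4 (0.916) and Btrc (0.91), and Tbx20 like Pde5a (0.928), Ccdc82 (0.915) and Mon1b (0.913). Isl1 was most like Scn2b (0.904), Ccdc8 (0.903) and Zfp454 (0.9), and Hand1 like Upk1a (0.851), Tac2 (0.811) and Slc2a5 (0.808). Gata6 was most like Foxp1 (0.932), Incenp (0.921) and Ggnbp2 (0.92), and these were 0.506, 0.552 and 0.44 without let-7f male 1, so its likeness rested on that fetus.

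The wider heart programme was described through lists of genes around the factors. No list held a gene past limma's threshold in either sex. Of 30 tested other heart transcription factors and cofactors, 20 were higher and 10 lower in let-7f females (median log2 difference 0.0396) and 14 higher and 16 lower in let-7f males (median -0.0255). In let-7f male 2 alone, 23 of 29 were higher (median 0.0716). The smallest p in males belonged to Smyd1, a muscle methyltransferase (log2 difference -0.69, SE 0.201, limma adjusted p = 0.447), and to Irx3, a homeodomain factor of conduction tissue (0.40, SE 0.189, limma adjusted p = 0.447). These were at -0.31 and 0.19 without let-7f male 1. In females they belonged to Foxc1 (-0.19, SE 0.135) and Smyd1 (0.23, SE 0.169).
Of 24 heart muscle genes 11 were higher and 13 lower in females (median -0.0101), and 19 higher and 5 lower in males (median 0.541). Without let-7f male 1 the male median was -0.136, with 8 higher and 16 lower. Pln, which encodes the calcium pump regulator phospholamban, was at 1.01 in males (SE 0.339, limma adjusted p = 0.447) and Myl7, the atrial myosin light chain, at 1.59 (SE 0.681, limma adjusted p = 0.447), and without let-7f male 1 they were at 0.28 and 0.14.

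Signals that act on the heart, such as the BMP, FGF and semaphorin ligands, counted 25 genes, of which 19 were higher in let-7f females (median 0.073) and 7 in let-7f males (median -0.079, and 0.0803 without let-7f male 1). Bmp2, a ligand that patterns the atrioventricular canal together with Tbx2, was at -0.78 in males (SE 0.279, limma adjusted p = 0.447) and Sema3c, a guidance cue of the outflow tract, at -0.43 (SE 0.17, limma adjusted p = 0.447), and without let-7f male 1 they were at -0.25 and -0.13. Conduction genes had a median of 0.0132 in females and -0.125 in males (-0.13 without let-7f male 1), where Kcnj3, an inward rectifier potassium channel, was at -1.25 (SE 0.367, limma adjusted p = 0.447) and at -0.63 without that fetus.
For the other lists 3 medians of log2 differences follow each name: females, males, and males without let-7f male 1. They were 0.0774, -0.0189 and 0.0636 for endocardium and endothelium, 0.0347, 0.114 and -0.0622 for epicardium, and 0.012, 0.0274 and 0.135 for valve and outflow mesenchyme. The male median thus changed sign without that fetus for endocardium and epicardium.
Tissues outside the heart in which the factors act gave medians, in the same order, of -0.0268, -0.0224 and 0.144 for motor and cranial neurons, -0.0255, -0.266 and -0.22 for sensory ganglion neurons, and -0.0873, 0.102 and 0.128 for sympathetic neurons. For limb mesenchyme they were -0.00124, 0.0116 and 0.265, and for branchial arch and face mesenchyme -0.111, 0.217 and 0.0736. They were 0.2, -0.196 and -0.483 for skeletal muscle, 0.0282, -0.113 and 0.135 for gonad and mesonephros, and 0.039, -0.0954 and -0.0397 for foregut, lung and gut endoderm. Skeletal muscle genes, a tissue of Mef2c, were higher in females for 13 of 14 and lower in males for 11 of 14, and none passed limma's threshold.

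Blood, liver and extraembryonic genes were followed as markers of tissue that could differ between the fetuses. The 3 embryonic globins of primitive red cells had a male median log2 difference of 2.07, the farthest from 0 of the 19 lists, and of 1.57 without let-7f male 1. Their score was 1.95 and 0.577 in the 2 let-7f males and -1.34 to -0.231 in the vehicle males, so both let-7f males lay above every vehicle male. Let-7f male 2 was however within the range of the vehicle females, -0.438 to 0.784. Vehicle males were themselves below vehicle females for these globins, with a median log2 difference of -1.07. Hba-x, the zeta globin, was at 2.07 (SE 0.435, limma adjusted p = 0.447) and Hbb-bh1 at 2.72 (SE 0.639, limma adjusted p = 0.447). In females the globin median was -0.253. The part of these globins in the male values of the factors and of the heart muscle list was not tested.
In the same order of females, males, and males without let-7f male 1, the medians were 1.45, -0.037 and -0.76 for liver, where vehicle female 2 stood apart, 0.443, -0.329 and -0.276 for erythroid genes, and 0.2, -0.821 and -0.596 for trophoblast and yolk sac.

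Sequence upstream of the genes was read where a RefSeq start was held, for 5 of the 10 factors (Hand2, Isl1, Mef2c, Nkx2-5 and Tbx20) and 7 windows of 250 bases before the start, on GRCm38.p6. The windows of Hand2 and of the most upstream Mef2c start are shown because these factors varied in opposite directions between fetuses; they lie at chr8:57320733-57320982 and chr13:83503784-83504033, both on the plus strand. Capitals mark words bound by the factors themselves.
Hand2: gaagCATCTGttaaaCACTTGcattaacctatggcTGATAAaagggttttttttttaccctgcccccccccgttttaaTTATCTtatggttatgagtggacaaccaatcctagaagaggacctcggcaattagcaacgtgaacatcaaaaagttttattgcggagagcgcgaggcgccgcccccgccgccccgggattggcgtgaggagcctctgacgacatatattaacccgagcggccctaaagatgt
Mef2c: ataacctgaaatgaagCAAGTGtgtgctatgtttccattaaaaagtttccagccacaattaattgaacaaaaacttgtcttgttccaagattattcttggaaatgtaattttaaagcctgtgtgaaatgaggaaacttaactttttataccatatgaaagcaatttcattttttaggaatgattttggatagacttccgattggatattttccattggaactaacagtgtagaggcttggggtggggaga
Words were sought on both strands, and words of different factors may share bases. A GATA word (AGATAA, the word AGATAG, the word TGATAA or the word TGATAG) was in windows of Hand2 and Isl1, where 26.5% of all 32851 windows of this length held it. An NKX2 word (CAAGTG or the word TAAGTG) was in windows of Hand2 and Mef2c (18.4% of all windows), a HAND E-box (CATCTG) in windows of Hand2 and Mef2c (14.4%), and a T-box word (AGGTGT) in a window of Mef2c (11.8%). The Hand2 window held words of 3 kinds, a pair of them GATA. No window of these factors held a MEF2 word, which 0.508% of all windows held. With 5 genes these shares are a description and say nothing of binding in these fetuses.

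On GRCm38, GENCODE M21 places Nkx2-5 at chr17:26838664-26845009 on the minus strand, Gata4 at chr14:63198922-63271692 (minus), Tbx2 at chr11:85832551-85841948 (plus) and Tbx3 at chr5:119670669-119684724 (plus). Tbx20 lies at chr9:24718138-24774303 (minus), Hand1 at chr11:57828705-57832818 (minus), Hand2 at chr8:57320983-57324633 (plus), Isl1 at chr13:116298281-116309689 (minus) and Mef2c at chr13:83504034-83667080 (plus). In GENCODE M21 a gene on the opposite strand overlaps Gata6 (1010001N08Rik), Tbx3 (Tbx3os1) and Hand2 (Hand2os1), and none of these is named in the table used here. The library kit marks strand, but the sources used here do not say whether counting made use of it. Overlap was taken over whole gene spans, and shared exon sequence was not examined. Whether reads of those partners entered the values of these 3 factors therefore cannot be told.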

How the data were processed

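RNA of 14 E12.5 fetuses was poly-A selected and made into strand-specific TruSeq libraries, per the labels' protocols. Build GRCm39 and the tools kallisto 0.50.1, DESeq2 1.48.2, Trimmomatic 0.39, MultiQC 1.28 and FastQC 0.12.1 are named in the submitters' processing notes. Per gene, the authors deposited 1 normalized signal value for each fetus. Whole reads could be recovered for count models, since 100% of a library's values were whole multiples of its smallest step (tolerance 1e-06). A further 1 row without a gene name, with up to 0.0334% of a library's reads, was left out.

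Genes with a mean value of at least 10 (17400; 732 left out) were tested with limma 3.58.1 in R 4.3.3 on log2(value + 1), with 4 group means, a trended prior, 10 residual degrees of freedom and Benjamini-Hochberg adjustment over all genes. The pseudocount understates changes of low genes. Correlations used permutation tests in Python 3.11.15 with numpy 2.4.6, exact where n was 9. Procedures were tested on simulated data.

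The factors and gene lists were chosen with earlier results of these data known. Genes were named by rule: the 10 factors, for each list described up to 2 genes of smallest p in the comparison, the 3 genes most alike to each factor, and Myh6, Tnnt2 and Nppa. Tried besides were edgeR 4.0.16, DESeq2 1.42.0, a replicate block, library weights, a robust prior, 75th-percentile rescaling, only the groups compared, filters of 50 and of none, pseudocounts of 0.5 and 5, and omission of each fetus. Added after seeing the data were score covariates, the correlations with the ribosomal protein score and between factors, male gene lists without let-7f male 1, and leaving out 5 libraries that stood apart in an earlier look at these data (ribosomal protein score above 0.3, liver score below -2 or trophoblast score above 1). Those 5 libraries were vehicle females 1 and 2, vehicle males 1 and 2, and let-7f male 1. Without them the male comparison held only let-7f male 2 and vehicle males 3 and 4. Coordinates are from GRCm38, an older build than the submitters'. All 20 same-group pairs of libraries differed beyond sampling noise (lowest chi-square over its degrees of freedom 18.2).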

Additional observations from a re-analysis of the deposited data

Results flagged for a closer look

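Of 20 sets of values (10 factors in the vehicle females and in the vehicle males), 2 held a fetus far from the rest of its group, where chance gives about 1 in 20. Both were vehicle male 2. Its Nkx2-5 value was 56.69 while the other vehicle males lay between 22.5 and 28.35 (the gap was 0.829 of the range), and its Mef2c value was 1021.4 while the others lay between 2608.1 and 2924.2 (0.834 of the range). Vehicle male 2 also had the highest ribosomal protein score (0.906) and heart muscle score (0.523) of the vehicle fetuses; the part of these in the 2 values was not tested.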

How the results depend on the processing

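The female comparison called 1 gene with limma, and 0 with a pseudocount of 5, only the groups compared, edgeR or without the 5 libraries that stood apart, 2 with no filter or DESeq2, and 18 with library weights. Leaving out 1 fetus gave 0 to 1. The male comparison called 0, then 1 with a pseudocount of 0.5, 58 with DESeq2 and 0 to 4389 on leaving out 1 fetus, the highest without let-7f male 2. Over both sexes the counts were 0, 8 with DESeq2 and 0 to 868, for the difference 0, 24 with DESeq2 and 0 to 3207, and for vehicle males against females 7, and 12 with DESeq2. Replicate numbers did not pair the fetuses (correlations of -0.576 to 0.346 over 16 pairs), and the replicate block gave 0 genes in females and 5 between vehicle sexes. Correlations of 6 factors with the heart muscle score became 0 without the 2 farthest fetuses and 0 within vehicle. With the ribosomal protein score 8 passed, then 3, 3 and, without let-7f male 1, 4, of which 2, 2 and 3 were among the 8 and the other was Tbx20. The 6 pairs became 0 and 0, and 4 without let-7f male 1.

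Of 572 values of the factors under alternatives other than leaving out a fetus, 538 kept direction and side of the threshold, 34 reversed and 0 newly passed. On leaving out let-7f male 2, 6 values newly passed: Gata6, Tbx2, Hand2 and Isl1 in males, Gata6 over both sexes and Tbx2 for the difference. In females, Nkx2-5 reversed to 0.043 (library weights), 0.0071 (without the 5 libraries) and 0.037 (ribosomal covariate), Gata6 to -0.0023 (without the 5) and Isl1 to -0.036 (ribosomal covariate). In males, without the 5 libraries (let-7f male 2 against vehicle males 3 and 4), Gata4 was 0.30, Gata6 -0.091, Tbx3 -0.0013 and Isl1 0.23. With the heart muscle and then the ribosomal covariate, male Gata4 was 0.12 and 0.18, Isl1 0.10 and 0.14 and Mef2c 0.10 and 0.22, and Tbx3 was -0.025 at the 75th percentile and -0.11 with library weights. Over both sexes Gata4 was 0.014 (edgeR), 0.024 (DESeq2), 0.24 (without the 5), 0.16 and 0.16 (covariates), Tbx3 0.075 (replicate block), 0.088 and 0.085, Isl1 0.14, 0.058 and 0.053, Gata6 -0.047 and Hand2 -0.0056 (without the 5). Between vehicle sexes Gata6 was -0.015 and -0.066 and Isl1 0.021 and 0.0696 (library weights, without the 5). The cause was not tested.

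Leaving out 1 fetus, female values spanned 0 as follows: Nkx2-5 -0.23 to 0.13, Tbx2 -0.28 to 0.0079, Tbx3 -0.17 to 0.041, Tbx20 -0.10 to 0.25, Hand2 -0.24 to 0.0901 and Isl1 -0.12 to 0.17. In males Nkx2-5 ran from -0.028 to 1.26, Gata4 -0.72 to 0.26, Gata6 -0.075 to 1.48, Tbx3 -0.15 to 0.22 and Isl1 -0.77 to 0.38. Over both sexes Nkx2-5 ran from -0.048 to 0.60, Gata4 -0.25 to 0.24, Tbx3 -0.11 to 0.076, Isl1 -0.37 to 0.20 and Mef2c -0.10 to 0.36, and between vehicle sexes Gata4 -0.26 to 0.0028, Gata6 -0.067 to 0.12 and Isl1 -0.21 to 0.02.

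Without the 2 farthest fetuses the r with the heart muscle score turned to -0.465 for Gata6, -0.369 for Tbx20, 0.442 for Hand1 and 0.27 for Isl1, and within vehicle to -0.221 for Gata6 and -0.708 for Tbx20. With the ribosomal protein score it turned to -0.0109 for Gata6, -0.692 for Tbx20, 0.442 for Hand1 and 0.286 for Isl1, for Tbx20 to -0.869 within vehicle and -0.866 without let-7f male 1. Nkx2-5, at 23 to 58 reads, is the factor depth limits most, and 2 let-7f males limit every male value.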
